A study of Homo sapiens with 4 samples.

Results

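Added DLC1 was compared with an empty vector in SCP2 cells that had received no TGF-beta, by subtracting the log2 intensities of the vector array from those of the array labelled DLC1. SCP2 is a bone-colonising derivative of MDA-MB-231, grown out from a single cell of that established human line of triple-negative breast cancer. The series holds 4 arrays, 1 for each of vector and DLC1-overexpressing cells, each untreated or given TGF-beta, and the 2 untreated arrays are the ones compared here. The members are all genes named by the array's annotation, of which 19775 had a probe set with a single symbol and 13134 were bright enough to be kept, meaning that the highest of the 4 values reached 0.38, the median of all values. No group has a replicate, so differences are given as sizes, with no test and no p-value. The construct, whether the overexpressing line is a pool or a clone, and the number of cultures behind an array were not stated in the sources used here, and neither were the dose and duration of TGF-beta.

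DLC1 encodes a protein that acts on the actin cytoskeleton, through which cells contract and move. It sits in focal adhesions, where integrins tie the cytoskeleton to the matrix, and it is known as a tumour suppressor that is deleted or silenced in many carcinomas. The title of the series places the work in breast cancer metastasis to bone, where tumour cells act on osteoclasts through secreted factors.

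The transcript of DLC1 itself does not settle which array holds the overexpressing cells. Its brightest probe set read 1.77 on the vector array and 3.38 on the other, a log2 difference of 0.93. A second bright set of DLC1 read 1.79 and 1.44, a difference of -0.31, and a dim one read 0.26 and 0.18. The mean of the 3 kept sets differed by 0.03. The sets therefore went opposite ways and none reached 2-fold, so the second array is called the array labelled DLC1 throughout.

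Both untreated arrays carried the markers of a mesenchymal triple-negative line. The 12 such markers had a median intensity of 44.5 on the vector array and 33.8 on the array labelled DLC1, and VIM, which encodes vimentin, read 178 and 160. The estrogen receptor gene ESR1 read 0.41 and 0.40, next to the filter of 0.38, and the E-cadherin gene CDH1 read 0.12 and 0.23. Some luminal and epithelial genes were bright, such as KRT18 at 65.1 and 64.2 and DSP at 23.2 and 25.4. The 16 luminal markers summed to 99.8 and 110.5, and 5 and 6 of them lay under the filter. Leukocyte markers lay near the floor, with sums over 11 genes of 4.86 and 4.42 and PTPRC, the pan-leukocyte gene, at 0.17 and 0.29. Endothelial and stromal markers summed to 5.04 and 5.29 over 12 genes, with the endothelial cadherin gene CDH5 at 0.10 and 0.11. Osteoblast and adipocyte markers summed to 14.3 and 7.95 over 11 genes, and the osteoblast enzyme gene ALPL read 0.16 and 0.17. Median intensities of the 4 arrays were 0.38 to 0.39. The gap between the 3' and 5' control sets of beta-actin, a sign of RNA length, was 3.26 on the vector array and 3.11 on the array labelled DLC1 on the log2 scale, and that of GAPDH was 0.39 and 0.35.

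Most genes lay close to the vector value. Of the kept genes, 80.7% differed by no more than 0.5 on the log2 scale, and the median difference was -0.03. The difference was above 0 in 45.3% of them and below 0 in 53.5%, the background for such counts in the lists below. The size rule for a changed gene was a 2-fold difference or more, which is 1 on the log2 scale. By that rule 211 genes rose, 1.61% of those kept, and 303 fell, 2.31%. Both values reached the filter on the 2 untreated arrays for 168 of the genes that rose and 234 of those that fell, and for the others the size is uncertain because the dimmer value lies under 0.38. At least 4-fold was reached by 14 genes upward and 18 downward. In the plot of the untreated arrays the changed genes flank a narrow diagonal, and HSPA5 stands alone among the brightest genes. It was the only one of the 500 brightest genes to pass 2-fold, and the largest drop among them was -0.91.

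**Figure D1:**
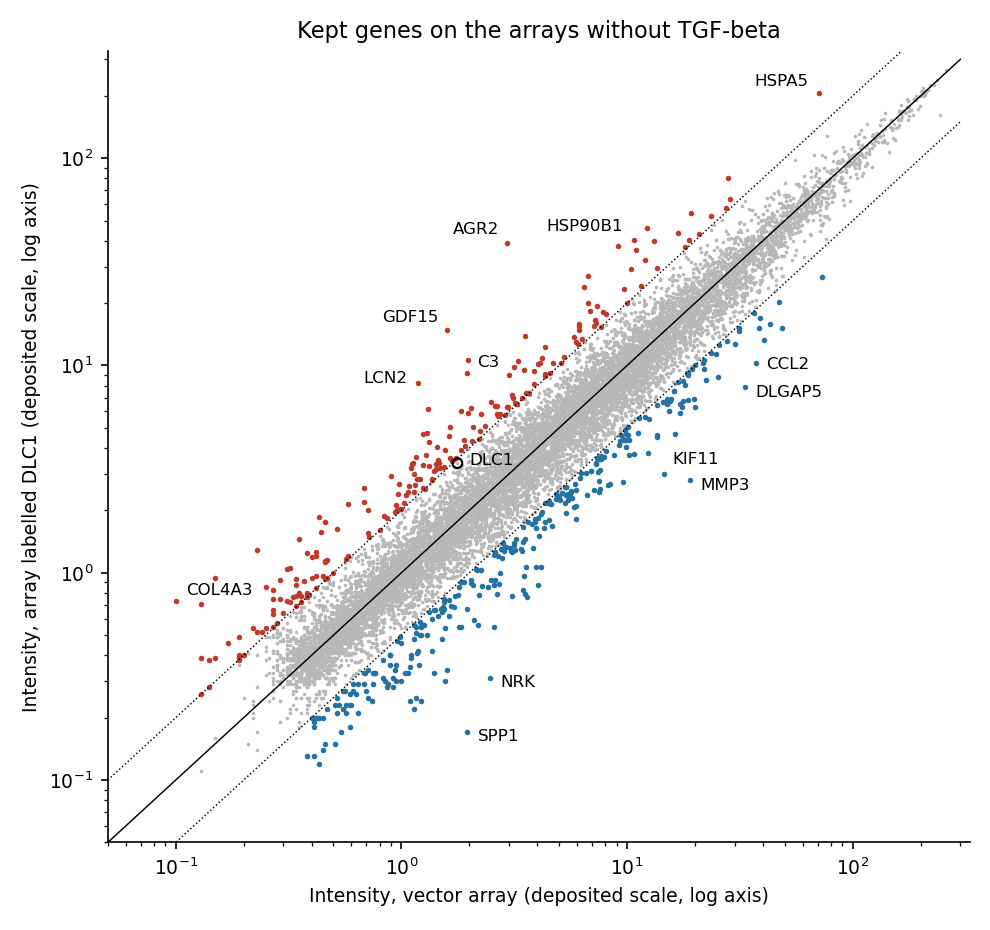
Intensity of each kept gene on the vector array (horizontal) and on the array labelled DLC1 (vertical), both untreated and on log axes, with the line of equality and dotted lines at 2-fold. The 211 genes that rose are red, the 303 that fell are blue, the rest are grey, and the brightest probe set of DLC1 is ringed, just inside the upper dotted line.

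The balance between rises and falls depends on the reference. Of the changed genes, 41.1% rose on the deposited scale. With each array centred on the median of the housekeeping list, every difference moved up by 0.15 and 61.3% of the changed genes rose, 317 against 200 that fell. List medians between -0.15 and 0 turn positive under that centring, so no direction is read from them below.

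Probe sets of a gene offer a look at technical spread within the arrays, although they are not replicates. Among the 211 genes that rose, 82 had other kept sets, and in 75 of these every other set was also higher. In 34 of them every other set passed 2-fold as well. Among the 303 genes that fell, 131 had other kept sets, all of them lower in 111 genes and all past 2-fold in 37.

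With TGF-beta, the corresponding pair of arrays gave 190 rises, 1.45% of the kept genes, and 211 falls, 1.61%. The 2 pairs share no array, but by their labels they compare the same 2 kinds of cells. An effect of DLC1 and any other lasting difference between these cells cannot be told apart by the pairs. Of the genes that rose without TGF-beta, 112 also rose with it, and of those that fell, 144 also fell. All but 2 of the 211 were above 0 with TGF-beta, and all but 3 of the 303 were below it.

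Genes of protein folding in the endoplasmic reticulum were higher as a group, and 13 of 39 passed 2-fold. The endoplasmic reticulum folds and glycosylates proteins bound for secretion. When unfolded proteins build up there, 3 sensors, encoded by ERN1, ATF6 and EIF2AK3, start the unfolded protein response. Its outputs are chaperones, export and degradation machinery, and a brake on translation that favours the transcription factor ATF4. Of 39 measured genes for chaperones and folding enzymes, 13 rose and 0 fell, against 1.61% and 2.31% of all kept genes. The list's median difference was 0.66, against -0.03 for all kept genes, and 34 members were above 0.

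All 4 measured chaperones of the HSP70 and HSP90 kind rose. HSPA5 encodes BiP, the main chaperone of the compartment and the repressor of the stress sensors. It read 71.2 on the vector array and 207 on the array labelled DLC1, a 2.91-fold rise, and its dimmer set rose by 2.03 on the log2 scale. HSP90B1, which encodes the HSP90 of the endoplasmic reticulum, read 10.7 and 40.5, and both of its sets, whose names mark possible cross-hybridisation, rose. HYOU1, a large HSP70 relative, went from 7.21 to 16.5 and HSPA13 from 20.8 to 43.1. Among 9 co-chaperones, 3 rose. SDF2L1, a cofactor of the J protein encoded by DNAJB11, read 6.69 and 27.0, a 4.03-fold rise, and DNAJB9, a J protein that hands BiP to the sensor encoded by ERN1, read 10.96 and 36.3. DNAJB11 itself read 23.6 and 52.9. DNAJC3, an inhibitor of the kinase encoded by EIF2AK3, gave 0.89 in its brightest set and up to 1.94 in its other 3 kept sets, all past 2-fold.

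Of 14 protein disulfide isomerases and oxidases, which form disulfide bonds in newly made proteins, 4 rose. AGR2, an isomerase of mucus-secreting epithelia, had the highest difference of any kept gene, from 2.94 to 39.2, or 13.3-fold, and its dim set rose by 2.67. PDIA4 read 12.3 and 45.8, PDIA3 16.8 and 43.4, and the oxidase gene ERO1B 1.21 and 2.83. The more abundant P4HB and PDIA6 gave 0.60 and 0.52. Among lectin chaperones and other folding factors, CRELD2 rose from 6.69 to 20.1 and MANF, a secreted stress-protective factor, from 28.1 to 80.1. The calreticulin gene CALR read 12.6 and 21.5, a difference of 0.77, and the calnexin gene CANX gave 0.44. The lowest members, TMX1 at -0.31 and TMX3 at -0.16, encode membrane-bound isomerases.

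The endoplasmic reticulum stress response element, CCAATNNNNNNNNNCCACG, is the promoter motif through which the cleaved form of ATF6 acts together with the factor NF-Y. It was searched on both strands of the RefSeq promoter windows (build GRCh38.p14, 250 bases before to 50 after the first start site listed for a gene), which matched 10595 kept genes by symbol. Only 13 windows held it, 0.123% of them, and 6 of these 13 genes rose and 0 fell, with a median difference of 0.77. Of the 10582 genes without it, 1.51% rose. Stretches around the motif are shown for the 6 genes that rose, so that their letters can be compared, with the motif in capitals and each written 5′ to 3′ on the strand of its gene.
HSP90B1: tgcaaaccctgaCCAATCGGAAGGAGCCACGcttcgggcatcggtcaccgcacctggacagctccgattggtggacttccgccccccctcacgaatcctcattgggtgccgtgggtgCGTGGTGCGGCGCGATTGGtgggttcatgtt
CRELD2: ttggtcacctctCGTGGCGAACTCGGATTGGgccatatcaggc
FICD: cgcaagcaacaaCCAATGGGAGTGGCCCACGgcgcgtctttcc
HSPA5: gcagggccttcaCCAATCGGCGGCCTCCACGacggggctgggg
ERO1B: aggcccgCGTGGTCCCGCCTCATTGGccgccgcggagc
XBP1: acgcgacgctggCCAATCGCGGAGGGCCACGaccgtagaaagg
The 2 matches of HSP90B1 lie on opposite strands at chr12:103930204-103930351 on the plus strand of the genome, and that of HSPA5 at chr9:125241379-125241421 on the minus strand. The window of CRELD2 is at chr22:49918542-49918584 (plus), that of FICD at chr12:108515111-108515153 (plus), that of ERO1B at chr1:236282171-236282208 (minus) and that of XBP1 at chr22:28800591-28800633 (minus). All lie upstream of the start site.

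The other 7 genes with the motif stayed within 2-fold, and 4 of the 13 share their element with a neighbour that starts in the opposite direction. CRELD2 faces ALG12, a mannosyltransferase gene, across the same 43 bases at chr22:49918542-49918584. CRELD2 rose by 1.59, whereas ALG12 read 0.40 and 0.39, a difference of -0.04. SERP1, which protects proteins during translocation, faces EIF2A at chr3:150546698-150546740, and these gave 0.46 and 0.04. The stretch is shown for each pair on the strand of the gene named second, so that of ALG12 is the reverse complement of the one given for CRELD2.
ALG12: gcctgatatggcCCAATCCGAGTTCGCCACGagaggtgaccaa
EIF2A: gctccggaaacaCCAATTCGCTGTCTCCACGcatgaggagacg
Both members of each pair hold the same letters, and their differences from vector were not the same. ALG12 lay next to the filter on both arrays, so for this gene a lack of response cannot be told from a lack of signal. The remaining genes with the motif were CALR at 0.77, CANX at 0.44, TMEM120A at 0.37 and TRIM5 at -0.03. FICD, the enzyme that modifies BiP with AMP, belongs to no list used here and rose by 1.58. A match describes the letters of a window and shows no binding.

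Further along the secretory route, 6 of 69 measured genes of export and degradation rose and 0 fell, and 57 were above 0, with a median of 0.27. Of all kept genes, 1.61% rose, 2.31% fell and 45.3% were above 0. XBP1, whose spliced messenger RNA makes a transcription factor of this response, read 4.31 and 8.92. The sensor gene EIF2AK3 read 5.23 and 10.99. The sensor gene ERN1 gave 0.73 and ATF6 -0.09. The array does not tell the spliced form of XBP1 from the unspliced one.

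Degradation genes were nearly all higher, 18 of 19, and 3 of them rose. HERPUD1, a membrane component of the ubiquitin ligase complex that clears misfolded proteins, read 19.3 and 54.5. SELENOS, a selenoprotein of the same complex, read 27.5 and 57.6, and EDEM2, which trims mannose from misfolded glycoproteins, 1.74 and 3.56. SEL1L, the scaffold of the complex, lay just under the line at 10.5 and 20.96 in its brightest set, and its other 3 kept sets rose by 1.12 to 1.78. Translocation and transport genes were higher in 34 of 40 cases, yet SEC11C, a signal peptidase subunit that read 13.6 and 29.7, was the only one to rise. SEC23A and COPA, which encode coat proteins of vesicles, were among the lower ones at -0.29 each, and the lowest of the 40 gave -0.40.

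Genes of the ATF4 arm were higher as well. ATF4 is translated when the initiation factor eIF2 is phosphorylated, and it switches on genes for amino acid uptake and synthesis and, with DDIT3, for the end of the response. Of 41 measured members, 11 rose and 0 fell, beside 1.61% and 2.31% of all kept genes. Their median was 0.55, and 37 were above 0. Without the filter on low values the list's median was 0.35. TRIB3, a pseudokinase that restrains ATF4, read 9.07 and 37.7, a 4.16-fold rise. NUPR1, a small stress-induced nuclear protein, read 6.46 and 23.9. PPP1R15A, the phosphatase subunit that ends the translation block, read 2.65 and 5.83. ATF4 itself gave 0.63, from 67.0 to 104, and DDIT3 gave 0.86.

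Not every member of the ATF4 list shared this. ATF5 gave -0.66, and EIF2AK4, the kinase that senses uncharged tRNA, gave -0.94, from 10.8 to 5.61. Among 10 genes of amino acid synthesis none passed 2-fold, although CTH at 0.97 and ASNS, the asparagine synthetase gene, at 0.94 came close. Of 9 amino acid transporters, SLC3A2, the heavy chain shared by several exchangers, rose from 6.12 to 15.9 and SLC1A4 from 1.89 to 4.39. The cystine exchanger gene SLC7A11 gave -0.21. Of 17 cytosolic tRNA synthetases, which ATF4 also targets, 0 passed 2-fold, and they ran from -0.59 for FARSB to 0.79 for WARS1. By that size 1.61% of all kept genes rose, and at that share groups of 10 and 17 genes may hold none.

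Other ATF4 targets rose in 6 of 11 cases. GDF15, a secreted stress cytokine of the TGF-beta family, read 1.59 and 14.8, a 9.30-fold rise, in a probe set whose name marks possible cross-hybridisation. DDIT4 and SESN2, inhibitors of mTOR signalling, read 13.2 and 39.7, and 1.62 and 4.59. VLDLR, a lipoprotein receptor gene, read 1.16 and 3.62, the glutathione-degrading enzyme gene CHAC1 1.40 and 3.09, and JDP2 0.95 and 2.12. CREBRF, a regulator of the unfolded protein response outside the lists, read 3.52 and 13.9, and its other 4 kept sets rose by 1.39 to 1.80.

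The C/EBP-ATF response element, TGATGNAA, through which ATF4 binds with C/EBP partners, gave a weaker picture. Searched as above, it was in 190 windows, 1.79%, of whose genes 6 rose, 3.16%, and 12 fell, 6.32%. Of the 10405 genes without it, 1.54% rose and 2.26% fell. It was in 7 of 32 windows of the ATF4 list, or 21.9%, of which 2 rose, while 8 of the 25 members without it rose. The stretches upstream of 3 list members are shown with the motif in capitals, because these genes differ in their response.
CHAC1: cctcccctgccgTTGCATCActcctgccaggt
ASNS: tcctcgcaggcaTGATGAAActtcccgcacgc
ATF3: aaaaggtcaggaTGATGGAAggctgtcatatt
They lie at chr15:40953250-40953281 (plus), chr7:97872457-97872488 (minus) and chr1:212565204-212565235 (plus). CHAC1 rose by 1.14, while ASNS and ATF3 gave 0.94 and 0.55.

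**Figure D2:**
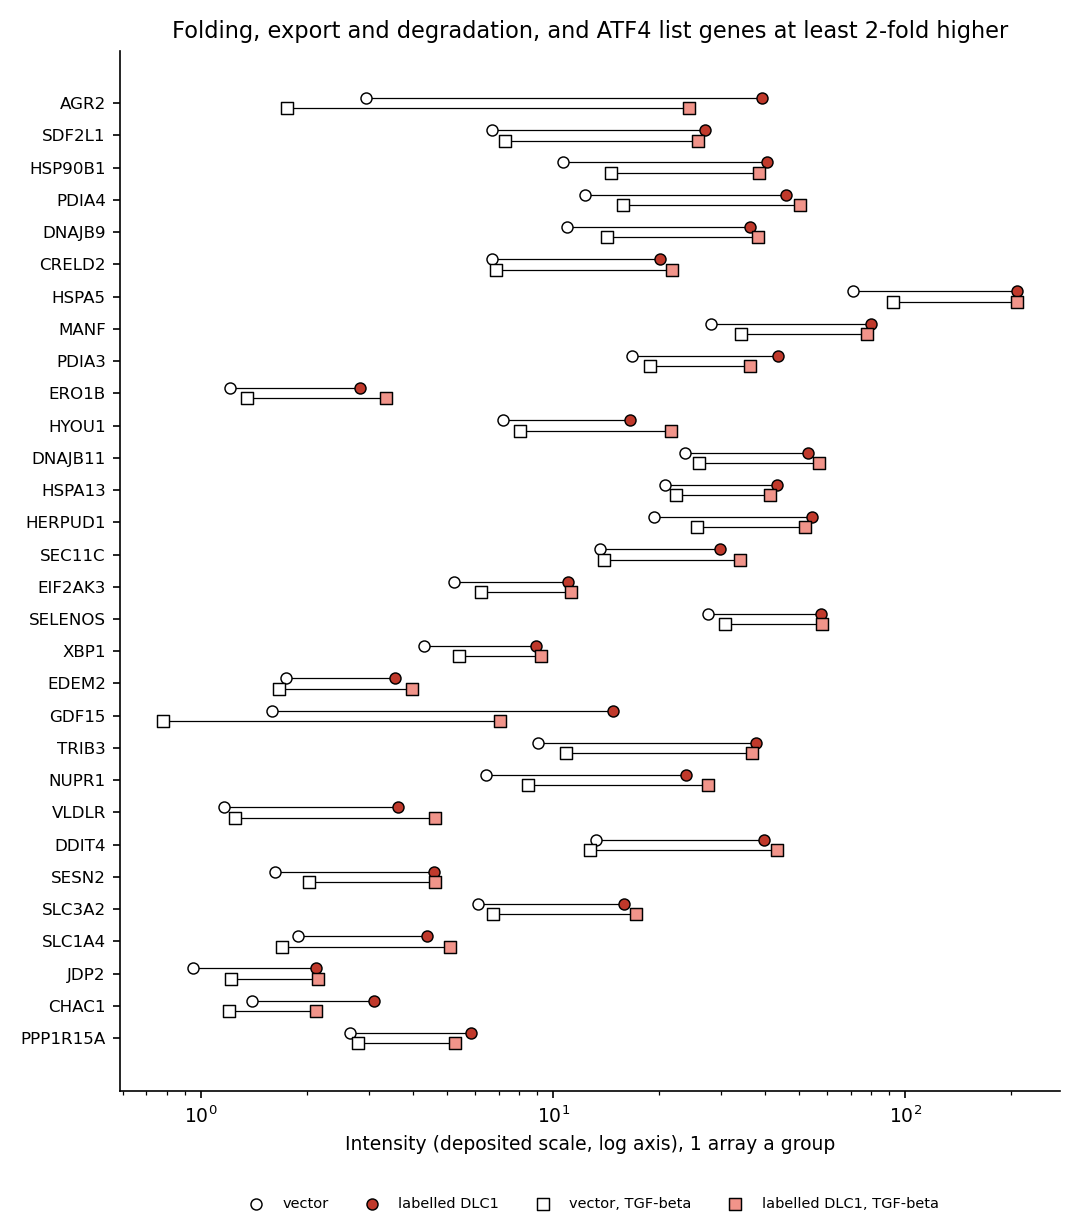
Intensity on a log axis of the 30 genes of the folding (top), export and degradation (middle) and ATF4 (bottom) lists that rose without TGF-beta, 1 symbol for each of the 4 arrays, with a line joining each pair. Circles are the untreated arrays and squares those with TGF-beta, and filled symbols, labelled DLC1, lie to the right of open ones in every pair.

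With TGF-beta the same difference in these lists was 0.61 at the median for folding genes, with 11 rises, 0.18 for export and degradation, with 4, and 0.47 for the ATF4 list, with 12. On the untreated arrays, 18S ribosomal RNA controls read higher in the array labelled DLC1 by 0.84, 0.43 and 0.85 at the 5' end, the 3' end and the middle. Their part in the differences of these lists was not tested.

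Lysosome and autophagy genes shifted the same way by less. Of 45 measured members, 37 were above 0, 2 rose and 0 fell, with a median of 0.31. Over all kept genes, 45.3% were above 0, 1.61% rose and 2.31% fell. The 2 were MAP1LC3B, the gene of the autophagosome protein LC3, at 18.8 and 40.5, and its relative GABARAPL1 at 1.83 and 3.93. The cathepsin D gene CTSD gave 0.84. Cholesterol synthesis genes were above 0 in 20 of 21 cases with a median of 0.24, and SREBF1, a master regulator of lipid synthesis, rose from 3.58 to 7.40. Fatty acid genes parted. The carrier gene FABP4 fell from 2.56 to 0.55 and FABP5 from 31.3 to 15.1, while the synthesis genes SCD and FASN gave 0.82 and 0.81.

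Secreted proteins of barrier epithelia and of complement included several of the most raised genes. LCN2, which encodes a siderophore-binding protein of innate defence, read 1.18 and 8.21, a 6.96-fold rise. It was the only one of 15 measured secretory and acute-phase genes to rise, and the iron exporter gene SLC40A1 fell from 1.19 to 0.42. Over all kept genes, 1.61% rose and 2.31% fell. CD24, a cell-surface glycoprotein of epithelial cells, read 1.98 and 10.6 in its brightest set, and its other 5 kept sets gave 0.87 to 2.33. Most CD24 sets have names that mark possible cross-hybridisation.

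Of 10 complement components, 4 rose, beside 1.61% of all kept genes. C3, the protein on which all complement pathways converge, read 1.95 and 9.19, a 4.71-fold rise. CFB, which forms the alternative pathway convertase with C3, read 1.10 and 3.21. C1S read 0.45 and 0.96 and CFI, an inhibitory protease, 0.27 and 0.55, close to the filter. PTX3, a soluble pattern receptor, went the other way, from 73.3 to 26.7. The coagulation inhibitor gene TFPI2 fell from 38.8 to 17.0, and its other kept set fell by 1.80.

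Genes of mitosis were lower as a group. At mitosis, motors of the kinesin family and the kinetochore move chromosomes, condensin compacts them, and the spindle checkpoint delays their separation. The genes are transcribed together late in the cell cycle, and they are repressed in resting cells by the DREAM complex. Of 88 measured members, 25 fell and 0 rose, beside 2.31% and 1.61% of all kept genes. Their median difference was -0.67, and 82 were below 0.

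Kinesin motors fell in 7 of 12 cases, and all 12 were below 0. KIF11, the motor that pushes the spindle poles apart, read 14.5 on the vector array and 2.99 on the array labelled DLC1, a 4.86-fold drop and the second largest among genes measured on both arrays. CENPE, which carries chromosomes to the spindle equator, read 16.4 and 4.68. KIF20A read 17.6 and 6.33, KIF4A 15.5 and 6.74, and KIF15, which can stand in for KIF11, 5.36 and 2.37. KIF14 and KIF20B also fell, at -1.12 and -1.05.

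Of 27 kinetochore genes 5 fell, and 4 of them belong to the outer part that holds microtubules. KNL1 read 8.25 and 2.66. NDC80, SPC25 and NUF2 are 3 of the 4 subunits of the NDC80 complex, and they read 19.8 and 6.89, 5.95 and 2.09, and 20.05 and 10.02. The remaining subunit, SPC24, gave -0.81. The fifth, CENPI of the inner kinetochore, fell by 1.38, whereas CENPA, the centromeric histone, gave 0.27 and MIS12 gave 0.89.

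Checkpoint and condensin genes followed. All 19 mitotic kinase and checkpoint genes were below 0, and 3 fell. BUB1, a checkpoint kinase, read 13.6 and 4.61, BUB1B 18.7 and 6.82, and the centrosomal kinase gene NEK2 16.1 and 7.50. CDK1 and CCNB1, the kinase and cyclin that drive entry into mitosis, gave -0.34 and -0.56. Among 30 spindle, cohesin and condensin genes 10 fell. DLGAP5, a spindle stabiliser, read 33.2 and 7.88, a 4.22-fold drop, and the topoisomerase gene TOP2A 40.5 and 13.3. The condensin I genes NCAPH, NCAPG and NCAPD2 read 8.38 and 2.69, 38.6 and 15.3, and 3.05 and 1.28, while NCAPD3 of condensin II gave -0.44. MKI67, the gene of the proliferation marker Ki-67, parted by probe set, with 0.61 and 0.28 in its brighter sets and -0.95 and -0.90 in its dimmer ones.

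The cell cycle genes homology region, TTTGAA, is the element through which DREAM and related complexes bind these promoters. Searched on both strands as above, it was in 1049 of 10595 windows, 9.90%, of whose genes 17 rose and 58 fell, or 5.53%. Of the 9546 genes without it, 1.98% fell. It was in 50 of the 78 windows of the mitotic list, 64.1%, of which 17 fell, and 7 of the 28 without it fell. The medians of the list's genes with and without it were -0.72 and -0.58. Stretches are shown for 6 genes that fell, to show how close to the start site the match lies in several of them, with the match in capitals.
KIF11: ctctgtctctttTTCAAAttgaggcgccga
TOP2A: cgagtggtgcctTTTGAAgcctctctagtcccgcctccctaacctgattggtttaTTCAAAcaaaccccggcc
BUB1B: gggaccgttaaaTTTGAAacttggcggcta
HMMR: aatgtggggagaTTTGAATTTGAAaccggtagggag
NCAPG: tcgcgggaattaTTTGAAcgttcgagcggt
ANLN: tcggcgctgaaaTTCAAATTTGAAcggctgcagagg
Capitals in the form TTCAAA are matches on the opposite strand. The windows are chr10:92593090-92593119 (plus) for KIF11, chr17:40418030-40418102 (minus) for TOP2A, chr15:40161034-40161063 (plus) for BUB1B, chr5:163460592-163460627 (plus) for HMMR, chr4:17810932-17810961 (plus) for NCAPG and chr7:36389824-36389859 (plus) for ANLN. The last matched base lies 23 bases before the start site in KIF11, 18 in BUB1B, 17 in HMMR, 30 in NCAPG and 15 in ANLN, and 146 in TOP2A. Among fallen genes not shown, it lay farther off in DLGAP5 (104), ASPM (108), NCAPD2 (140) and SPC25 (242). In KIF4A and KIF15 it lay at 29 and 30. HMMR, a spindle and hyaluronan-binding protein, fell by 1.45 and ANLN, a scaffold of the cleavage furrow, by 1.22.

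**Figure D3:**
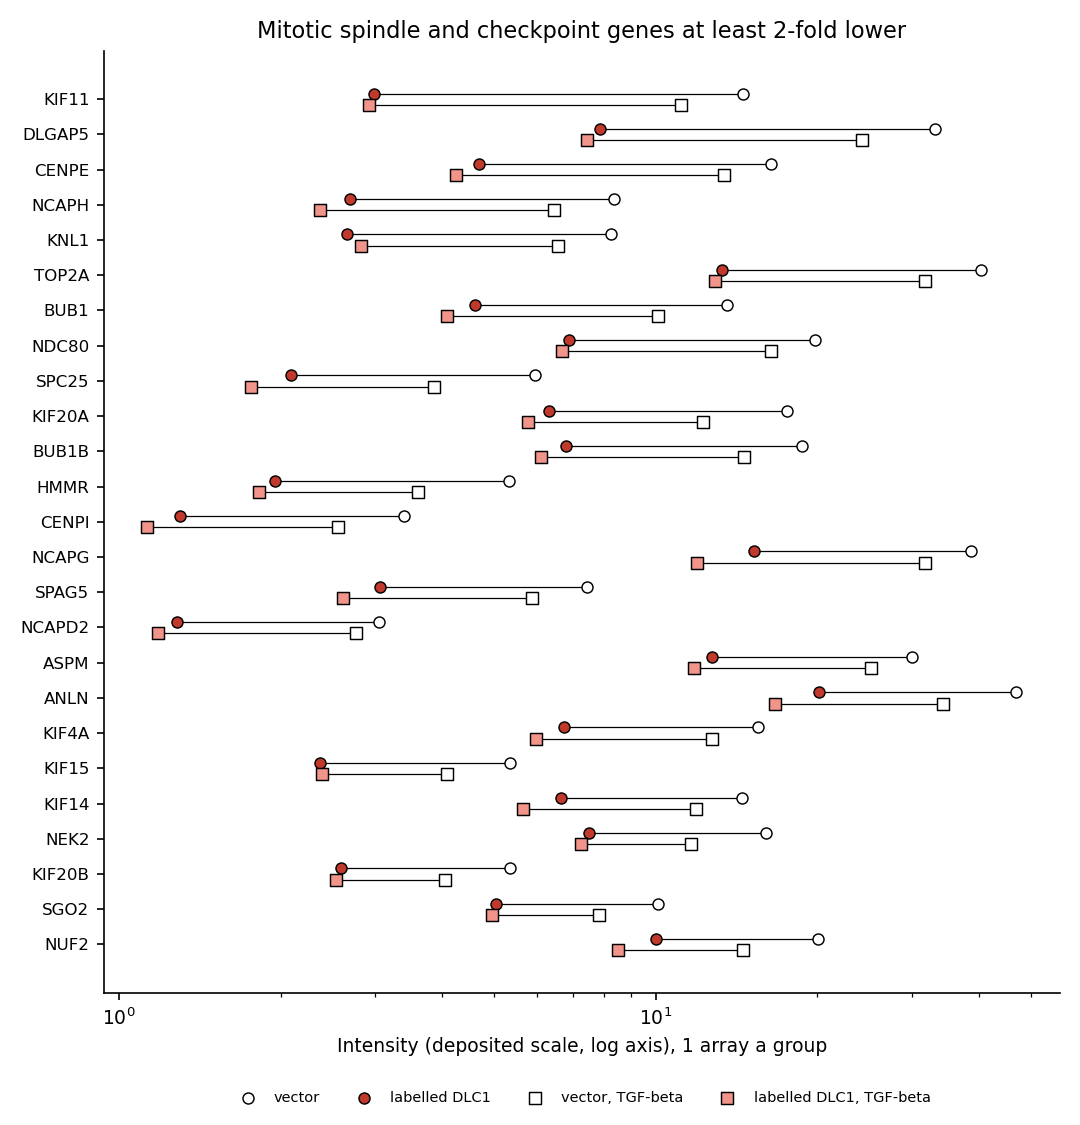
Intensity on a log axis of the 25 mitotic genes that fell without TGF-beta, 1 symbol for each of the 4 arrays, circles untreated and squares with TGF-beta, with a line joining each pair. Filled symbols, labelled DLC1, lie to the left of the open ones in every pair, from KIF11 at the top (14.5 and 2.99 untreated) to NUF2 at the bottom (20.05 and 10.02).

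DNA replication genes were lower by less. Of 80 measured genes of replication and repair, 67 were below 0 and 5 fell, with a median of -0.38. Over all kept genes, 53.5% were below 0 and 2.31% fell. POLE2, a subunit of the leading-strand polymerase, read 17.1 and 5.93. Of the primase complex that starts each new strand, POLA2 fell by 1.20 and PRIM1 by 1.16, while POLA1 and PRIM2 gave -0.54 and -0.80. CLSPN, an adaptor of the replication checkpoint, and BRIP1, a repair helicase, fell by 1.49 each. The helicase genes MCM2 and MCM7 gave 0.14 and 0.31, and the sliding clamp gene PCNA gave -0.18.

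Regulators of the cell cycle gave smaller values. None of 10 G1 cyclins and kinases passed 2-fold, with CCND1 at -0.21 and CDK4 at 0.32. Of 5 measured CDK inhibitor genes 4 were above 0, beside 45.3% of all kept genes. CDKN1A, CDKN1C and CDKN1B gave 0.72, 0.62 and 0.43, while the lowest of the 5 gave -0.70. Of the RB and E2F family, E2F2 rose from 1.05 to 2.36, while MYBL1, a MYB family factor, fell from 13.6 to 4.53 and the pocket protein gene RBL1 from 3.65 to 1.75. FOXM1, the activator of mitotic genes, gave -0.79. Of 16 histone genes and relatives, H4C8 fell by 1.09 and the median was -0.33. With TGF-beta the mitotic list had a median of -0.54 with 19 falls and the replication list -0.42 with 4. Fewer dividing cells and less of these transcripts per cell cannot be told apart in such extracts.

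Genes of the actin cytoskeleton and of YAP-TAZ signalling stayed within 2-fold, as most kept genes did. By that size 1.61% of all kept genes rose and 2.31% fell, and at that share lists this small may hold none. None of 27 actin and SRF-MRTF target genes passed that size, with ACTB at 0.11, VCL, the vinculin gene, at -0.75 and EGR1 at -0.95. None of 38 genes of the YAP-TAZ pathway did, with a median of -0.26. Its targets CCN1 and CCN2 gave -0.10 and -0.50, and YAP1 and WWTR1 gave -0.54 and -0.60. Among 28 focal adhesion components, CAVIN2, a coat protein of caveolae, fell from 4.15 to 1.07 and the paxillin relative LPXN from 17.2 to 6.55, and NEDD9 read 0.47 and 0.94.

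**Figure D4:**
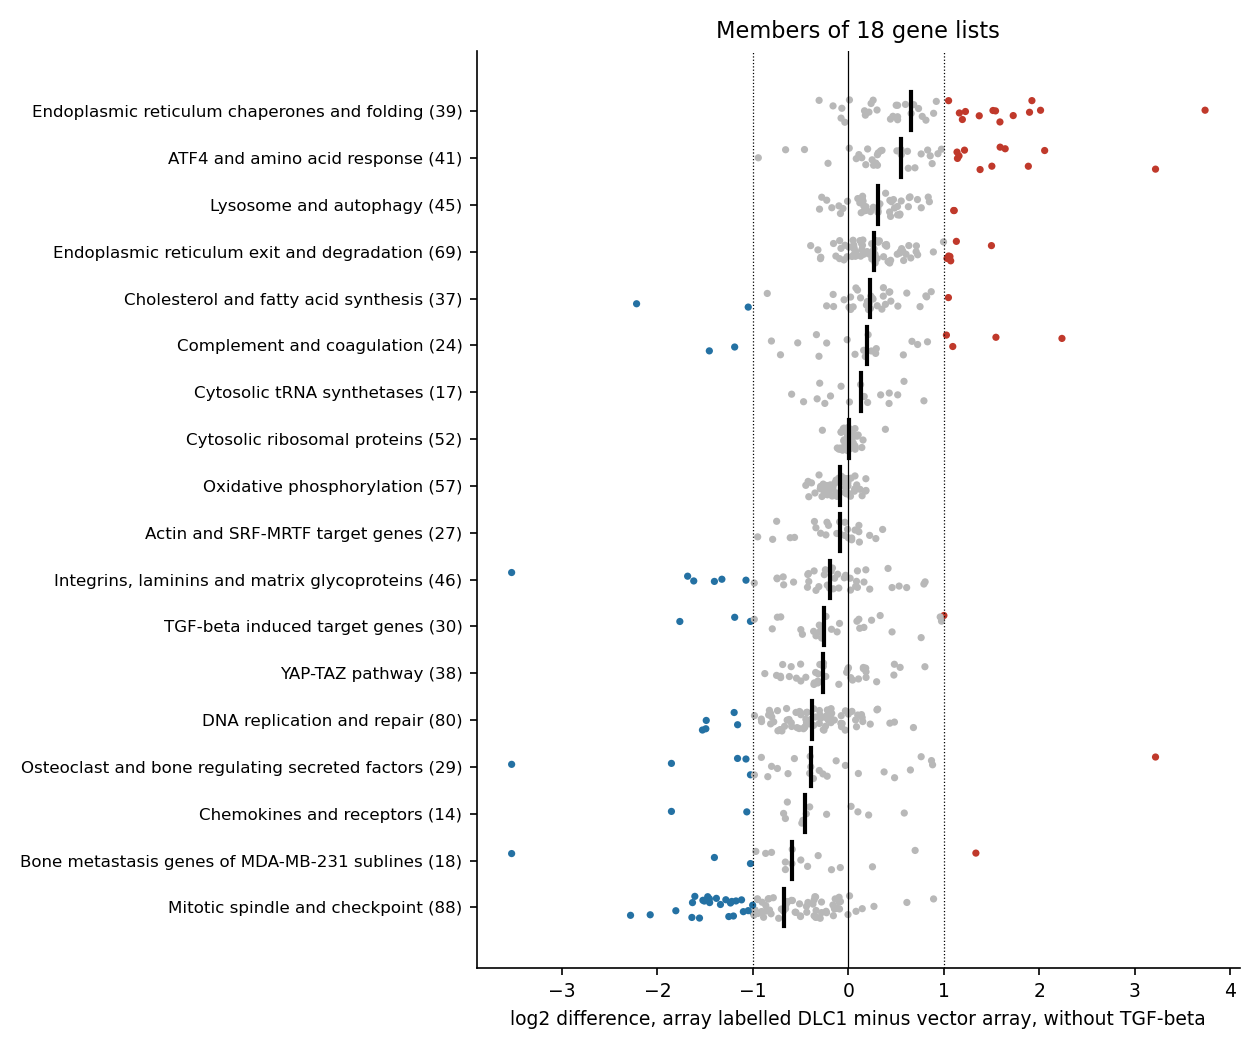
Difference of each measured member of 18 gene lists, array labelled DLC1 minus vector array without TGF-beta on the log2 scale, with the number of members in brackets, a black bar at each median and dotted lines at 2-fold. Red points rose and blue points fell; the folding list has its median at 0.66, the ribosomal list at 0.00 and the mitotic list at -0.67.

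Genes tied to bone metastasis were lower on the whole. Of 18 genes that mark bone-colonising MDA-MB-231 sublines, a list chosen on relatives of these cells, 15 were below 0 and the median was -0.59. Over all kept genes, 53.5% were below 0. SPP1, the gene of osteopontin, a matrix protein that anchors osteoclasts, read 1.96 and 0.17, and the second value lies under the filter. The tenascin C gene TNC also fell, and IL11, a cytokine that stimulates osteoclast formation, fell from 4.50 to 2.21. CTSZ, a cathepsin, rose from 6.12 to 15.4 in its brightest set, while its dim set gave 0.06. The collagenase gene MMP1, among the brightest of all genes, read 244 and 162, and JAG1, a Notch ligand that acts on osteoclast precursors, read 60.5 and 33.2.

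Secreted factors that act on bone, some of them also on the list above, had a median of -0.39 over 29 genes. Of these 5 fell and 1 rose, beside 2.31% and 1.61% of all kept genes. CCL2, which attracts monocytes, the precursors of osteoclasts, read 37.3 and 10.3, a 3.61-fold drop. HBEGF, a ligand of the EGF receptor, read 6.91 and 3.09, and SPARC, the osteonectin gene, 0.61 and 0.29. GDF15 was the one that rose. CSF1, a factor on which osteoclasts depend, gave 0.87, and TNFRSF11B, whose product blocks osteoclast formation, gave 0.88.

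Other chemokines gave smaller values. Of 14 measured chemokines and receptors, CCL2 and the receptor gene CCR1, which read 0.69 and 0.33, fell. All 6 CXC ligands were below 0, between -0.68 for CXCL3 and -0.23 for CXCL16, and CXCR4 gave -0.66. Among cytokines, IL7 fell by 1.74, with its second value under the filter, and IL24 from 1.54 to 0.75, while the kinase gene PIM1 rose from 2.23 to 4.81. Of 30 NF-kappaB genes and targets, BCL2A1, an inhibitor of cell death, was the only one past 2-fold, at 0.59 and 0.18.

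Several matrix genes fell, among them the gene with the deepest drop of those measured on both arrays. MMP3, the stromelysin gene, read 18.98 and 2.81, a 6.75-fold drop. PLAU, the urokinase gene, fell from 24.7 to 11.4 and ADAMTS6, a secreted metalloprotease, from 3.79 to 1.71. ADAM19 read 0.51 and 0.15 and ADAMTS3 0.59 and 0.26, both under the filter on the array labelled DLC1. Of the proteases and inhibitors 5 of 51 fell and 3 rose, beside 2.31% and 1.61% of all kept genes, and no direction is read for the list. Of those that rose, CST1 and CST4 encode salivary-type cystatins that inhibit cysteine proteases, and read 1.25 and 4.67, and 3.16 and 9.82. Sets of this family may share signal, since its members are near copies.

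Of 46 integrins, laminins and glycoproteins 6 fell and 0 rose, beside 2.31% and 1.61% of all kept genes. ITGB8, the integrin chain that frees latent TGF-beta, read 7.53 and 2.45. THBS1, another activator of latent TGF-beta, read 48.7 and 15.2, and all of its other 6 kept sets were lower, by -0.54 to -1.64. LAMB1, a laminin chain, read 4.51 and 1.80. Of 35 collagen genes and modifying enzymes, 2 passed 2-fold, COL4A3 and COL4A4, neighbouring genes of kidney-type basement membrane, which rose from 0.10 to 0.73 and from 0.27 to 0.83. Their vector values are both under the filter.

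TGF-beta signalling genes were measured here without added TGF-beta. None of 25 receptors and SMADs passed 2-fold, and 19 were below 0, beside 53.5% of all kept genes below 0. At 2-fold 1.61% of all kept genes rose and 2.31% fell, so a list of this size may hold none. INHBB, an activin subunit, rose from 0.68 to 2.57, and TGFB1, TGFB2 and TGFB3 gave 0.04, 0.16 and -0.10. Of 30 TGF-beta induced genes, ADAM19, SNAI2 and IL11 fell and NEDD9 rose, with a median of -0.26. SNAI2, a repressor of epithelial genes, read 21.9 and 9.57. Other factors of epithelial-mesenchymal transition gave -0.46 for ZEB1 and -0.62 for ZEB2. Of 24 epithelial markers, the plakoglobin gene JUP alone rose, from 1.45 to 3.49, and EPCAM gave -0.22.

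Ligands of the EGF family were lower without TGF-beta. All 7 measured were below 0, with a median of -0.91, and 3 fell, beside 2.31% of all kept genes. Those that fell were NRG1, from 25.2 to 8.76, HBEGF, and EGF, from 0.64 to 0.29, the last value under the filter. Median intensities of the 7 were 0.79 on the vector array and 0.42 on the array labelled DLC1, close to the filter. The sizes of the dim members are therefore uncertain. With TGF-beta 5 of the 7 were below 0, 2 were above 0 and 1 fell, with a median of -0.61. The other 4 kept sets of NRG1 gave -0.77 to 0.11. CBLB, a ubiquitin ligase that turns off receptor kinases, rose from 4.35 to 12.2. EDNRB, an endothelin receptor, fell from 9.56 to 2.73, and both of its other sets fell. Among 38 guidance genes, NRP2, a co-receptor for semaphorins and VEGF-C, fell from 1.80 to 0.55, SLIT2 from 11.2 to 4.72, its receptor gene ROBO2 from 1.22 to 0.50, and EPHA4 and EPHA7 by 1.16 and 1.36. PTGER4, the prostaglandin E2 receptor EP4, fell from 12.4 to 3.78.

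Some transcription factors were among the larger differences. KLF9, a zinc finger factor induced by glucocorticoid and thyroid hormones, read 0.58 and 2.15, and TSC22D3, another glucocorticoid target, rose from 5.95 to 13.0. FKBP5, also such a target, fell from 9.57 to 4.43, so the targets did not move as one. SOX4 rose from 6.84 to 18.3 and NR4A2, an orphan nuclear receptor, from 1.44 to 4.06. KLF2 fell from 4.85 to 2.39, and HES1, a Notch effector, from 2.78 to 1.18. POU3F2 read 1.39 and 0.33, and its other set gave -0.41.

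Lists for interferon, DNA damage and oxidants were read against 1.61% of all kept genes higher and 2.31% lower. Of 54 interferon and antigen presentation genes, 2 rose and 1 fell, with a median of -0.06. IFI27 read 2.25 and 5.84 and BST2, a tether of budding viruses, rose by 1.05, while GBP1, a GTPase induced by interferon gamma, read 4.34 and 1.75, and ISG15 gave -0.02. Of 22 p53 target genes 3 rose, namely GDF15, SESN2 and TP53INP1, the last from 3.51 to 9.50. The first 2 of these are ATF4 targets as well, and the p53 target genes MDM2 and BAX gave 0.10 and 0.37. Of 30 genes of the NRF2 response to oxidants, the transporter gene ABCC3 was the only one past 2-fold, at 1.25 and 3.30, and NQO1 gave -0.38.

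Wnt, FOXO and vascular genes held a few changed members. Of 41 Wnt pathway genes, PRICKLE1, a planar polarity protein, rose from 3.43 to 6.96, and the ligand gene WNT5A gave -0.98. CCNG2, an atypical cyclin that FOXO factors induce, rose from 18.2 to 37.5. Of 27 angiogenic genes, EDNRB, ANGPT1 and ESM1 fell, the last from 0.92 to 0.28, and VEGFA, which ATF4 can induce, gave 0.76. UTP20, a factor of ribosome assembly, fell from 10.2 to 4.35, while MYC gave 0.07.

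Ribosomal protein and oxidative phosphorylation genes held close to the vector value, and the other lists given here spread more widely. None of 52 cytosolic ribosomal protein genes passed 2-fold, with a median of 0.00 and a range of -0.27 to 0.39. None of 57 genes of oxidative phosphorylation did, with a median of -0.09 and a range of -0.45 to 0.18. Cytosolic heat shock genes, the counterparts of the raised chaperones outside the endoplasmic reticulum, gave -0.15 for HSP90AA1 and 0.14 for DNAJB1. Of these 19 genes, HSPA4L alone passed 2-fold, at 5.66 and 2.48. Metallothioneins ran from -0.52 to 0.70 and clock genes from -0.99 to 0.98. Neither list had a member past 2-fold, beside 1.61% of all kept genes higher and 2.31% lower. Of 17 hypoxia genes, with a median of 0.25, 2 rose. These were NDRG1, from 12.1 to 32.3, and ANKRD37, from 1.91 to 4.09, while CA12 gave -0.08.

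The remaining genes with the largest differences belong to no group described above. Upward they were SLITRK6, a neuronal membrane protein, at 1.31 and 6.14, with all 3 sets between 2.23 and 2.30, SHOC1 at 0.43 and 1.86, TMEM178A at 0.46 and 1.75, ST6GAL1, a sialyltransferase, at 1.30 and 4.72, and MEGF6 at 0.44 and 1.58. Downward they were CCNA1, a cyclin of the germ line, at 3.60 and 0.76, the catalytic phosphoinositide kinase subunit PIK3CG at 4.03 and 0.87, and FBXO43, an inhibitor of the anaphase-promoting complex, at 3.52 and 0.79. CALB1, a calcium-binding protein, read 3.46 and 0.83, RIMS2 3.10 and 0.77, and VSNL1, a neuronal calcium sensor, 2.64 and 0.79. PAPPA, a protease that releases insulin-like growth factors, read 3.58 and 1.07. The group was completed by CRISPLD1 at 2.18 and 0.56, DOCK10 at 3.48 and 0.96, SCLT1 at 3.93 and 1.07, HECW2 at 2.10 and 0.59 and CRISPLD2 at 1.83 and 0.55. Kept sets of a gene did not always give the same size. With their mean in place of the brightest set, CRISPLD2 gave -0.87 against -1.73 and MEGF6 1.01 against 1.84. PIK3CG gave -1.39 against -2.21 and PAPPA -1.24 against -1.74, while CALB1 gave -2.29 against -2.06.

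Where one of the 2 values lay under the filter, the direction is given and the size is uncertain. The highest such genes were ALDH8A1 at 0.15 and 0.94, DCHS1 at 0.23 and 1.29, MN1 at 0.13 and 0.71, SLC4A4 at 0.35 and 1.45, A2M at 0.25 and 0.85, BTBD19 at 0.31 and 1.04, TNFSF13B at 0.32 and 1.05 and RBM34 at 0.29 and 0.92, besides COL4A3 and COL4A4. TNFSF13B encodes the B-cell factor BAFF and A2M a broad protease inhibitor. The lowest, after SPP1, were NRK at 2.46 and 0.31, the phosphatase gene PTPN22 at 1.56 and 0.30, NDP, a ligand of the Wnt receptor FZD4, at 1.14 and 0.22, LINC01812 at 1.22 and 0.24, the acid-sensing receptor gene GPR65 at 1.59 and 0.34, MMP8 at 1.16 and 0.25, DEPDC7 at 1.09 and 0.24 and TMEM47 at 0.43 and 0.12, besides POU3F2.

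Some of these differences were smaller where both kinds of cells had received TGF-beta. Among 391 genes that passed 2-fold and reached the filter on all 4 arrays, SOX4 had the largest drop of those that rose, from 1.42 to 0.13. With TGF-beta SOX4 read 25.2 on the vector array and 27.6 on the array labelled DLC1. NEDD9 was exactly 2-fold higher without TGF-beta and gave -0.02 with it, from 5.09 and 5.01. SLITRK6 gave 2.23 and 1.14, CST1 1.90 and 0.88, SPINK4 1.57 and 0.61, and ABCA1, a cholesterol exporter, 1.58 and 0.67. For SOX4, NEDD9 and ABCA1 the vector array with TGF-beta lay above the untreated one.

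Of the genes that fell, 6 are given for the largest move toward the vector value with TGF-beta. Others did not do so, such as SPP1, which gave -3.53 and -4.12, and CCL2, which gave -1.85 and -2.03. CAVIN2 gave -1.96 and -0.56, GSAP -1.71 and -0.55, CRISPLD2 -1.73 and -0.64 and CNTRL, a centrosomal protein, -1.46 and -0.42. IL24 gave -1.04 and 0.14 and ANXA10 -1.03 and 0.24. Vector cells with TGF-beta read 0.96 for CAVIN2, 0.50 for IL24 and 0.92 for ANXA10, where the untreated vector array read 4.15, 1.54 and 2.83. No gene passed 2-fold in opposite directions in the 2 pairs.

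**Figure D5:**
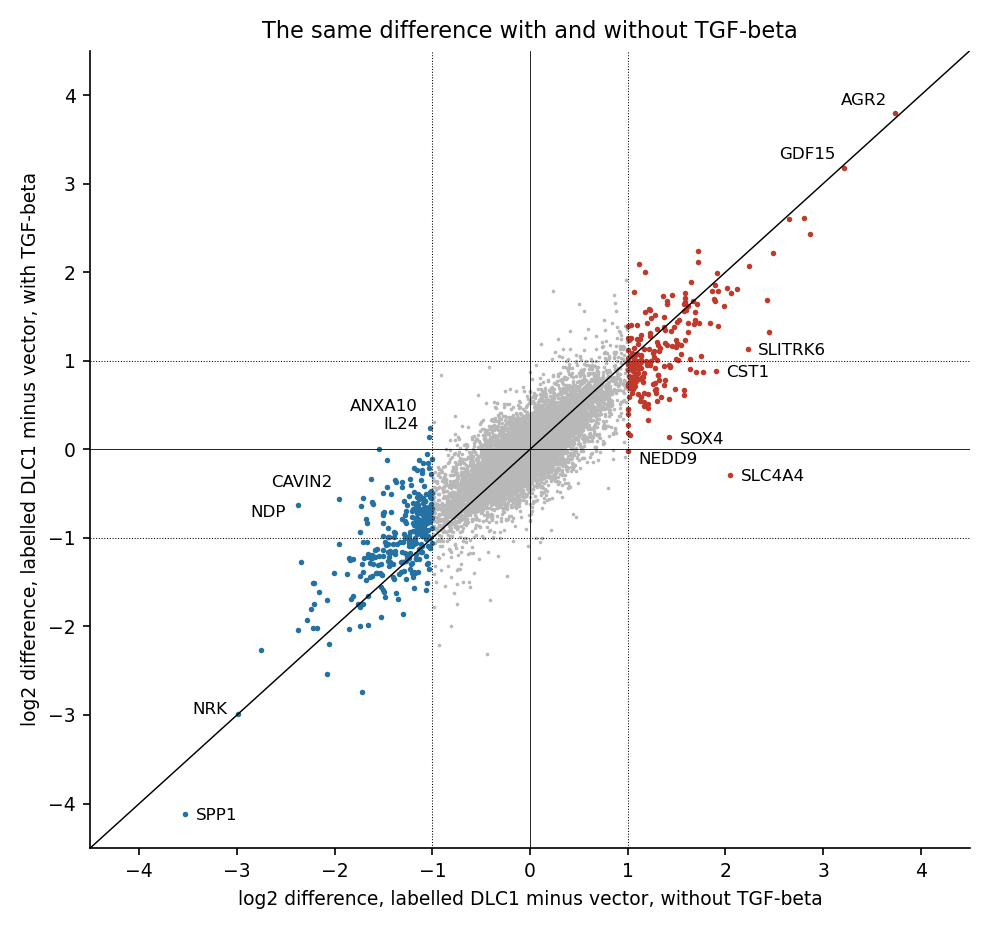
Log2 difference, array labelled DLC1 minus vector array, without TGF-beta (horizontal) and with it (vertical), for every kept gene, with the line of equality and dotted lines at 2-fold. Red and blue genes passed 2-fold without TGF-beta; AGR2, GDF15 and NRK lie near the line, and SOX4, SLC4A4, NEDD9, CAVIN2, IL24 and ANXA10 lie closer to 0 on the vertical axis than on the horizontal one.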

How the data were processed

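The authors deposited a linear intensity with 2 decimals for each of 54675 probe sets on 4 arrays. Per the submitters' processing notes these came from RMA, no version being named; the divisor of the scale is unknown. Logarithms were taken here, on base 2. Per the labels' protocols, cDNA was primed with oligo-dT. Of the 42898 probe sets in the platform annotation, 41097 have 1 symbol. A gene was its brightest such set by mean log2 over 4 arrays. It was kept if 1 value reached 0.38, and changed at 2-fold.

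Members, 57 gene lists and rules were chosen with earlier results of these data known. Genes named were DLC1, the 20 highest and 20 lowest measured on both arrays, the 10 highest and 10 lowest with 1 value under the filter, those past 2-fold among the 500 brightest, list members, and 6 on each side whose difference moved most with TGF-beta. FICD and the other genes with the stress element were added after their values were seen.

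The counting code was checked by putting known differences on the vector values, with no noise between arrays added. Such a check cannot show how many 2-fold differences arise between single arrays without any cause. Python 3.11.15, numpy 2.4.6, pandas 2.3.3, R 4.3.3 and limma 3.58.1 (cyclic loess) were used. Filter, probe set rule, pseudocount, centring, loess and fold were varied. The number of arrays limits all precision.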

Additional observations from a re-analysis of the deposited data

Results flagged for a closer look

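Control probe sets of 18S ribosomal RNA lie outside the gene comparison, and they were higher on the untreated array labelled DLC1 than on the vector array by 0.84 (5' end), 0.85 (middle) and 0.43 (3' end) on the log2 scale. With TGF-beta the same sets differed by 0.35, 0.30 and 0.07. The hybridisation controls BioB, BioC, BioDn and CreX, 9 sets, differed by 0.10 to 0.23, and their second series by 0.01 to 0.19.

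Probe sets without a single symbol were not used for the gene counts. Of 1176 kept sets with several symbols, 36 were at least 2-fold higher and 11 lower. Of 3622 kept sets that the annotation does not name, 98 were higher and 48 lower.

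For 4 named genes the difference without TGF-beta had the opposite sign with it, and the difference between the pairs was not tested. SLC4A4 gave 2.05 and -0.29, ANXA10 -1.03 and 0.24, and IL24 -1.04 and 0.14. NEDD9, exactly 2-fold higher without TGF-beta, gave -0.0229 with it. The value of NEDD9 with TGF-beta is next to 0, and both SLC4A4 values with TGF-beta, 0.44 and 0.36, lie at the filter.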

How the results depend on the processing

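With 0.25 added to every value, 131 genes rose and 191 fell, and 73 rose and 88 fell in both states, in place of 211, 303, 112 and 144. With arrays centred on the housekeeping list these counts were 317, 200, 227 and 79, and at 1.5-fold they were 752, 1149, 495 and 648. Without a filter, with the filter on both untreated arrays, with the mean of the probe sets, with centring on the kept genes and with cyclic loess, each count stayed within 1.5 times, between 168 and 232 for rises and 234 and 312 for falls. Of 70 genes named by size, DLC1 or state, 6 went under 2-fold in some setting (ANXA10, CNTRL, CRISPLD2, IL24, NEDD9 and TMEM47) and 0 changed sign. DLC1 itself gave 1.08 under housekeeping centring and 0.03 with the mean of its probe sets, against 0.93. Centring on the housekeeping list turned 18 list medians positive, and 3 changed sign under other settings, while 0 of the 23 medians of at least 0.2 in size changed sign in any. Of these, 5 moved by at least 0.15. Without a filter the ATF4 list went from 0.55 to 0.35, chemokines from -0.46 to -0.12 and osteoblast and adipocyte markers from -0.78 to 0.00. TGF-beta receptors and SMADs went from -0.23 to -0.05 with the mean of the probe sets, and leukocyte markers from -0.21 to 0.00 with the filter on both arrays. Counting a motif in any listed start site, chosen after seeing the data, gave 15 genes with the stress element, of which 6 rose and 0 fell. The C/EBP-ATF element then had 10 rises in place of 6 and 15 falls in place of 12, and the cell cycle element 25 in place of 17 and 66 in place of 58. Dim values are coarse, and no replicate gives a spread.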

Other observations

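The following groups were noticed after their values were seen and are given as values alone. Genes named ZNF, which encode zinc finger proteins, were above the vector value in 234 of 383 cases, with 12 at least 2-fold higher and 1 lower and a median of 0.11. Of those, 174 lie on chromosome 19, of which 9 rose and 0 fell, with a median of 0.17, while 765 other genes of that chromosome gave a median of 0.02. ZNF557 rose by 1.71 and ZNF83 from 3.09 to 7.17, although another set of ZNF83 gave 0.13.

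The share of genes that fell differed between chromosomes. It was 5.15% of 466 genes on chromosome 8, 4.74% of 190 on chromosome 18, 4.41% of 136 on chromosome 21 and 4.40% of 432 on chromosome X, against 0.32% of 939 on chromosome 19 and 0.34% of 591 on chromosome 16. The share that rose was 3.13% of 384 on chromosome 20, which holds the cystatin genes CST1, CST2 and CST4, and 3.06% of 490 on chromosome 4.

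Pregnancy-specific glycoprotein genes, which lie next to each other on chromosome 19, rose in 3 of 6 cases. PSG4 read 1.29 and 3.69, PSG7 1.15 and 2.65 and PSG1 1.49 and 3.21, in sets whose names mark possible cross-hybridisation. TNFRSF11A, the gene of the osteoclast receptor RANK, fell from 3.08 to 1.26, and ST6GALNAC5, a sialyltransferase, from 7.51 to 2.76. The noncoding RNA MALAT1 rose from 28.5 to 63.6.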
